A study of Mus musculus with 6 samples.

Results

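The 6 Fc receptor genes described here, Fcgr1, Fcgr3, Fcgr4, Fcer1g, Fcgr2b and Fcgrt, were 6 of the 32285 genes counted in a single-cell RNA-seq study of mouse cardiac cells bearing CD45, the surface protein of white blood cells. They were taken by symbol, and each symbol matched a single row of the count matrices. The hearts were collected at 28 days and fell into 3 groups of 2 libraries each. The TmemRT libraries came from C57Bl6J Tmem mice whose genotype label is STING KO, with hearts irradiated with 12 Gy in a single fraction. The RT libraries came from C57Bl6J mice labelled WT and irradiated in the same way. The Sham libraries came from C57Bl6J mice labelled WT that had a sham procedure. STING, encoded by Tmem173, is an adaptor that signals when DNA is sensed in the cytosol and leads to interferon production. A sham-treated STING KO heart was not analysed here, so genotypes were compared only after irradiation. The labels give no animal, age, batch or date for a library, nor how the STING allele was made, so p-values measure the spread between libraries, which may be technical.

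Fc receptors bind the constant part of antibodies and so link antibodies to the cells of innate immunity. Fcgr1, Fcgr3 and Fcgr4 encode the IgG-binding chains of the activating receptors of mouse macrophages, monocytes and neutrophils, which signal for phagocytosis and cytokine release. They do so through the shared gamma chain encoded by Fcer1g, whose tail carries an immunoreceptor tyrosine-based activation motif (ITAM). Fcgr2b encodes the inhibitory receptor, which carries an inhibitory motif (ITIM) in its own tail and dampens the activating ones. Fcgrt encodes the heavy chain of the neonatal Fc receptor, which pairs with beta-2 microglobulin (B2m) and returns internalised IgG and albumin to the circulation.

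The opposed signalling roles of the family are written in 2 short coding stretches, given 5′ to 3′ from the GENCODE vM21 transcripts, in which capitals mark the codons of the motif tyrosines. The Fcer1g stretch covers codons 65 to 79 of 86, and the Fcgr2b stretch covers codons 317 to 322 of 340.
Fcer1g ITAM: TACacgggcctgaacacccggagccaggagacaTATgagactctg
Fcgr2b ITIM: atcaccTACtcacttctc
The same search found no ITAM in the coding sequences of Fcgr1, Fcgr3, Fcgr4 or Fcgrt.

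In GRCm38, 4 of the 6 genes lie within 275.7 kb of chromosome 1. These are Fcgr2b (170958617 to 170976547, minus strand), Fcgr4 (171018920 to 171029761, plus strand), Fcgr3 (171051174 to 171064935, minus strand) and Fcer1g (171229572 to 171234365, minus strand). Fcgr1 lies on chromosome 3 (96282909 to 96293969, minus strand) and Fcgrt on chromosome 7 (45092990 to 45103851, minus strand). Fcgr2b and Fcgr3 share 233 stretches of 31 bases, 14.3% of those in the smaller set, but none in the last 500 bases of their transcripts, near where the 3′ tags are counted. An antisense gene overlapping an exon of Fcgr2b, Gm38204, had 0 to 3 UMIs per library. The promoters of Fcgr1 and Fcgr4, the members whose macrophage levels differed most between groups, are shown from RefSeq (GRCm38.p6), read along the gene's strand. Capitals mark matches to TTCNNNGAA (the GAS element of interferon signalling), GAAA, any pair of bases and GAAA (the core of the interferon-stimulated response element, ISRE) and GAGGAA (the core of PU.1 sites), searched on both strands.
Fcgr1, chr3:96293920-96294219, minus strand: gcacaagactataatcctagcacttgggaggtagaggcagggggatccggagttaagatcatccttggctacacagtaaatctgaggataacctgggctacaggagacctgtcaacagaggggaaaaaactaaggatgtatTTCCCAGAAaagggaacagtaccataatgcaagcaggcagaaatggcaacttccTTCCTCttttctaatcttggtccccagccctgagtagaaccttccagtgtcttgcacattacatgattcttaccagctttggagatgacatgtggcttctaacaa
Fcgr4, chr1:171018676-171018975, plus strand: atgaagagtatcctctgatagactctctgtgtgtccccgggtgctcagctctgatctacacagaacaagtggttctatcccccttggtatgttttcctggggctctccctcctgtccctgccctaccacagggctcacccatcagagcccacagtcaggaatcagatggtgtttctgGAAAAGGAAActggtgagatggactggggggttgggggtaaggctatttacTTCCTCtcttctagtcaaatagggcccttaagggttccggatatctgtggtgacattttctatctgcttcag
The Fcgr1 window holds the GAS letters 109 bases and GAGGAA, read on the opposite strand, 55 bases upstream of the transcription start. The Fcgr4 window holds the ISRE letters 73 bases and GAGGAA, also on the opposite strand, 22 bases upstream. No match overlaps another. Of 32851 promoters of the same length, 8.3% held TTCNNNGAA, 3.44% held the ISRE letters and 28.3% held GAGGAA. Fcgr3 has 2 annotated starts in RefSeq, and its windows hold only GAGGAA. The windows of Fcer1g, Fcgr2b and Fcgrt hold none of the 3 letter strings. A letter match is a description of the window and not a measured binding site.

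After filtering, 31279 of 45904 barcodes were kept as cells, 3394 to 6014 per library, with medians of 4409 to 6792 UMIs (unique molecular identifiers, each standing for 1 captured transcript). These cells held between 24516116 and 48253522 UMIs per library. Clusters were named from marker lists that exclude the 6 genes, which gave 10 classes with at least 20 cells in every library. These included lymphoid classes beside the myeloid ones. Endothelial-like and fibroblast-like classes were also present, so the CD45 isolation had carried other cells through. Cells are not replicates, so counts were summed per class and library, and levels are given as counts per 1e6 UMIs of that class and library (CPM). For Tmem173, TmemRT libraries had 40.4 and 43.1 CPM over all cells, RT libraries 45.5 and 41.8 CPM and Sham libraries 39.9 and 32.9 CPM. TmemRT against RT was not called (edgeR quasi-likelihood test, log2 fold change -0.20, adjusted p = 0.364). That test scales libraries by TMM (trimmed mean of M-values), which sets the bulk of genes level between libraries, and CPM values are scaled by total UMIs alone. With libraries scaled to their totals in the same test the difference was -0.06 (adjusted p = 0.815). A 3′ tag need not lie in the altered part of the gene, so this checks no label.

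Myeloid classes carried most of the signal, but each member had its own order across them, as the heat map of mean levels shows. Macrophage-like cells held on average 67.1% of all Fcgr1 UMIs, 62.7% of Fcgr3, 46.0% of Fcgr4, 47.0% of Fcer1g, 58.7% of Fcgr2b and 72.3% of Fcgrt. Clusters with markers of a second lineage, cycling cells aside, entered no class and made up 9.96% to 15.8% of cells per library. They held on average 12.5% of Fcgr1 UMIs, 14.5% of Fcgr3, 23.8% of Fcgr4, 18.3% of Fcer1g, 15.7% of Fcgr2b and 9.85% of Fcgrt. In Sham replicate 2 they held 34.0% of Fcgr4 UMIs, above the 33.3% of macrophage-like cells. The levels across classes are a description, since the classes are clusters of the same cells. They are means ± SD over all 6 libraries. That SD also holds the differences between groups, and an overlap of spreads leaves out that the classes of a library are paired.

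**Figure D1:**
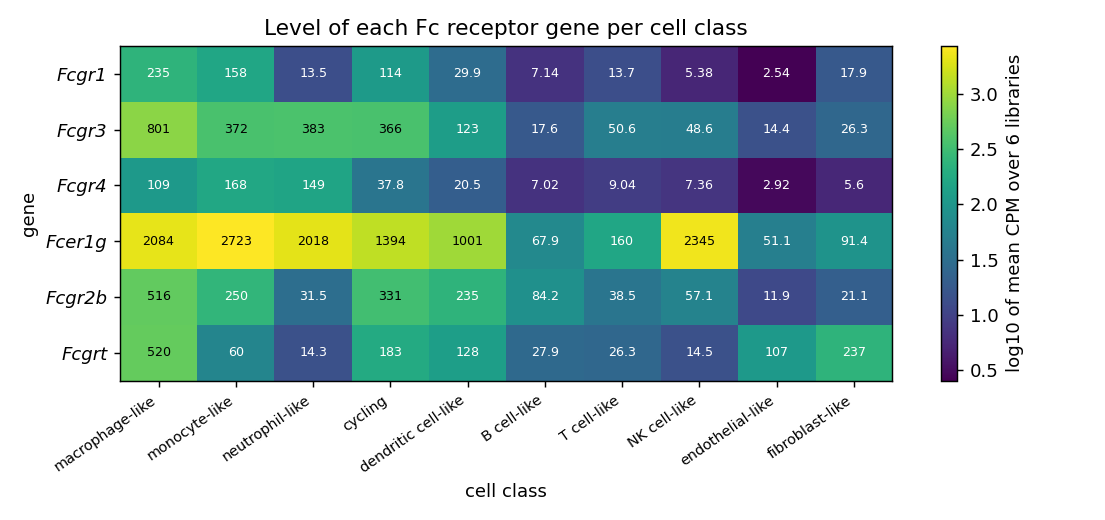
Mean level of each Fc receptor gene (rows) in each of the 10 cell classes (columns), in CPM over 6 libraries, on a log10 colour scale. Fcgr1, Fcgr3, Fcgr2b and Fcgrt were highest in the macrophage-like class, and Fcgr4 and Fcer1g in the monocyte-like class.

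Fcgr1, the high-affinity IgG receptor known as CD64, was highest in macrophage-like cells at 235 ± 66.2 CPM. Monocyte-like cells followed at 158 ± 43.4 CPM and cycling cells at 114 ± 34.0 CPM, each within the spread of its neighbour. In every library, though, Fcgr1 was higher in macrophage-like than in monocyte-like cells. Dendritic cell-like cells had 29.9 ± 8.18 CPM, and neutrophil-like cells, which carry the other activating receptors, had 13.5 ± 10.4 CPM. Fcgr3, the low-affinity receptor CD16, stood at 801 ± 85.9 CPM in macrophage-like cells, above the spread of the next class. Neutrophil-like (383 ± 52.4 CPM), monocyte-like (372 ± 57.7 CPM) and cycling cells (366 ± 29.3 CPM) overlapped. In NK cell-like cells, where Fcgr3 is the IgG receptor that triggers killing, its level was 48.6 ± 11.3 CPM. This overlapped with the 50.6 ± 23.4 CPM of T cell-like cells, so NK cell-like cells did not stand above them.

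Fcgr4, a receptor for IgG2 subclasses found on mouse monocytes, neutrophils and macrophages, had another order. It was at 168 ± 54.8 CPM in monocyte-like cells, 149 ± 11.0 CPM in neutrophil-like cells and 109 ± 48.8 CPM in macrophage-like cells, whose spreads overlapped from one to the next. Cycling cells came next at 37.8 ± 19.2 CPM. In every library Fcgr4 was higher in monocyte-like than in macrophage-like cells. Fcer1g, the gamma chain, was the member shared most widely. Monocyte-like cells had 2723 ± 185 CPM, NK cell-like cells 2345 ± 151 CPM, macrophage-like cells 2084 ± 131 CPM and neutrophil-like cells 2018 ± 147 CPM. B cell-like cells had 67.9 ± 15.1 CPM.

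Fcgr2b, the inhibitory receptor, was at 516 ± 31.5 CPM in macrophage-like cells and 31.5 ± 12.3 CPM in neutrophil-like cells. B cells use Fcgr2b as their only classical IgG receptor, and the B cell-like class had 84.2 ± 11.5 CPM of it, beside 17.6 ± 6.97 CPM of Fcgr3 and 7.14 ± 4.8 CPM of Fcgr1. Fcgrt was at 520 ± 74.5 CPM in macrophage-like cells. Its next classes were fibroblast-like, cycling, dendritic cell-like and endothelial-like, with 237 ± 34.6 CPM, 183 ± 60.5 CPM, 128 ± 11.7 CPM and 107 ± 28.7 CPM in that order, each within the spread of its neighbour. Monocyte-like cells had 60.0 ± 7.36 CPM, and the lowest levels were those of NK cell-like (14.5 ± 5.10 CPM) and neutrophil-like cells (14.3 ± 3.20 CPM), which overlapped.

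The genes whose levels followed each member most closely over the 60 class and library sums, by Pearson r of log2(CPM + 1), were Ms4a6d (0.95), Clec4a1 (0.94) and Adgre1 (0.92) for Fcgr1. For Fcgr3 they were Lilrb4a (0.95), Slc11a1 (0.94) and Ccl6 (0.94), and for Fcgr4 Lst1 (0.93), Klra2 (0.91) and Tlr13 (0.91). Fcer1g went with Itgam, Tyrobp and Efhd2 (0.97 each). Fcgr2b went with Ctsc (0.95), Pld4 (0.95) and Ctss (0.92), and Fcgrt with Cmtm3, Anxa4 and Lifr (0.89 each). The points of a class share its cells' identity and those of a library its depth, so these are descriptions.

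The main comparisons were made in macrophage-like cells, of which there were 1726 and 1863 in TmemRT libraries, 1207 and 1840 in RT libraries and 1828 and 1945 in Sham libraries. With 12 Gy, Fcgr1 and Fcgr4 rose in WT macrophage-like cells, and the other 4 members did not pass the edgeR test, although DESeq2 also called Fcgrt. Fcgr1 was lower in irradiated macrophage-like cells labelled STING KO than in irradiated WT ones, a call that depended on the scaling. Compared with Sham, TmemRT macrophage-like cells had no member past the threshold in edgeR, while DESeq2 called Fcgr3 and Fcgrt.

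Fcgr1 had 208 and 243 CPM in TmemRT libraries, 334 and 287 CPM in RT libraries, and 168 and 170.3 CPM in Sham libraries. Both RT libraries lay above both TmemRT libraries, which in turn lay above both Sham libraries. Against Sham, Fcgr1 rose in RT by 0.88 on the log2 scale (SE 0.10, adjusted p = 0.00588, edgeR quasi-likelihood test with Benjamini-Hochberg adjustment over 12405 genes). Against RT, Fcgr1 fell by 0.58 in TmemRT (SE 0.10, adjusted p = 0.0425). Between TmemRT and Sham the log2 difference was 0.30 (SE 0.10, adjusted p = 0.143). The rise in RT over Sham held when any 1 library was left out, with values between 0.78 and 0.98, but was lost where the mitochondrial limit on cells was 5% in place of 10% (0.78, adjusted p = 0.205). The lower level in TmemRT than in RT lost its call without Sham replicate 2 (-0.58, adjusted p = 0.0520), RT replicate 1 (-0.47, 0.130), RT replicate 2 (-0.68, 0.0739), TmemRT replicate 1 (-0.48, 0.330) or TmemRT replicate 2 (-0.68, 0.106). It was also lost at the 5% limit (-0.50, 0.497) and with libraries scaled to their totals (-0.46, 0.0596).

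Fcgr4 had 81.2 and 107 CPM in TmemRT libraries, 202 and 114 CPM in RT libraries, and 76.2 and 71.4 CPM in Sham libraries. RT replicate 1 stood well above the others, and RT replicate 2 was close to TmemRT replicate 2. Fcgr4 rose in RT over Sham by 1.10 (SE 0.24, adjusted p = 0.0361). That call was lost without RT replicate 1 (0.65, adjusted p = 0.0894), Sham replicate 1 (1.13, 0.136), Sham replicate 2 (1.08, 0.110), TmemRT replicate 1 (1.11, 0.0518) or TmemRT replicate 2 (1.11, 0.0512), and without RT replicate 2 the value was 1.45 (0.00572). TmemRT differed from RT by -0.86 (SE 0.23, adjusted p = 0.110) and from Sham by 0.24 (SE 0.23, adjusted p = 0.596).

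**Figure D2:**
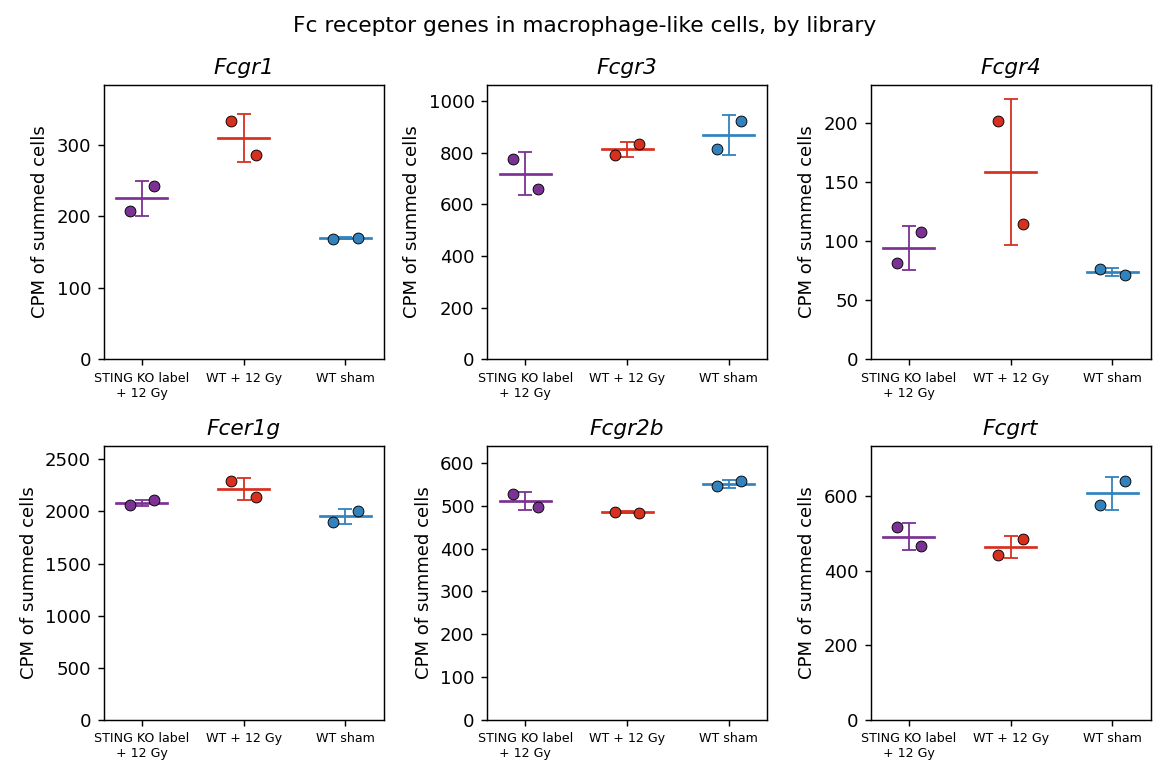
Levels of the 6 genes in macrophage-like cells in CPM (vertical axis, from 0), with 1 panel per gene and the groups TmemRT, RT and Sham in order on the horizontal axis. Points are libraries, lines the mean of 2 libraries and bars the SD; for Fcgr1 the groups do not overlap, and for Fcgr4 RT replicate 1 stands at 202 CPM.

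Fcer1g, which the activating receptors need to reach the surface, had 2061 and 2105 CPM in TmemRT, 2288 and 2142 CPM in RT, and 1901 and 2002 CPM in Sham libraries. RT was the highest group without overlap, but its difference to Sham was 0.19 (SE 0.07, adjusted p = 0.147). Fcgr3 had 778 and 662 CPM in TmemRT, 792 and 835 CPM in RT, and 816 and 925 CPM in Sham libraries, so RT and Sham overlapped. Its RT against Sham difference was -0.09 (SE 0.11, adjusted p = 0.665), and its TmemRT against Sham difference was -0.38 (SE 0.11, adjusted p = 0.0948).

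The inhibitory Fcgr2b had 527 and 497 CPM in TmemRT, 487 and 484 CPM in RT, and 546 and 557 CPM in Sham libraries. Both irradiated groups lay below both Sham libraries, with log2 differences of -0.21 for TmemRT (SE 0.08, adjusted p = 0.161) and -0.18 for RT (SE 0.08, adjusted p = 0.214). With libraries scaled to their totals these were -0.11 for TmemRT and -0.18 for RT (adjusted p = 0.337 and 0.141), so the order of the irradiated groups depends on the scaling. Fcgrt had 516 and 465 CPM in TmemRT, 441 and 483 CPM in RT, and 576 and 639 CPM in Sham libraries. Its differences to Sham were -0.42 for TmemRT (SE 0.10, adjusted p = 0.0622) and -0.38 for RT (SE 0.10, adjusted p = 0.0654). Scaled to library totals they were -0.31 for TmemRT and -0.39 for RT (adjusted p = 0.0789 and 0.0451), so their order changed and RT against Sham passed the threshold.

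In all, 2 of 6 members passed the test in RT against Sham, where 6.37% of all genes tested did, and 1 of 6 in TmemRT against RT, where 1.63% did. In TmemRT against Sham edgeR called 0 of 6 members, where 4.39% of all genes were called. Of these 6, 4 had an unadjusted p under 0.05 in edgeR, and DESeq2 called 2, Fcgr3 and Fcgrt. DESeq2 also called Fcgrt in RT against Sham. Scaling to library totals in place of TMM moved the median log2 fold change of all genes to 0.12 in TmemRT against RT and 0.11 in TmemRT against Sham. It gave 281 genes higher and 97 lower in TmemRT against RT, where TMM gave 71 higher and 131 lower. In TmemRT against Sham it gave 532 higher and 230 lower, where TMM gave 230 higher and 315 lower. The RT and TmemRT comparisons to Sham share the Sham libraries. With so few libraries a member that misses the threshold is not shown to be unaffected.

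The macrophage-like class joined 5 clusters, and their mix differed between groups. Cluster 10, whose best match was also macrophage, had fewer than 3 detected markers and was left unnamed outside the class. Cluster 0 (led by Lyve1, Ccl8 and Folr2, genes of resident macrophages) made up 38.0% and 32.4% of macrophage-like cells in TmemRT, 23.7% and 32.9% in RT, and 43.4% and 47.5% in Sham libraries. Cluster 18, led by the interferon-stimulated genes Ifit3 and Ifit2 and by Cxcl10, made up 2.72% and 5.69% in TmemRT, 13.5% and 9.18% in RT, and 0.985% and 0.925% in Sham libraries. Fcgr1 was higher in cluster 18 than in any other macrophage-like cluster in every library, with 613 and 810 CPM in TmemRT, 722 and 735 CPM in RT, and 811 and 985 CPM in Sham libraries. The Sham values rest on 18 cells each, so cluster 18 was not tested. A level summed over a class cannot tell a change of its mix of cells apart from a change of RNA per cell.

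Fcgr1 was therefore also followed within clusters. Without cluster 18, Fcgr1 rose in RT over Sham by 0.62 (adjusted p = 0.0181), 1 of 6 members called against 2.86% of all genes. Its TmemRT against RT difference was then -0.41 (adjusted p = 0.0865, 1.11% of genes called), and that of Fcgr4 in RT against Sham was 0.93 (adjusted p = 0.0800). In TmemRT against Sham edgeR called 0 of 6 members (4 at an unadjusted p under 0.05, 4.31% of genes called), where DESeq2 was not run. Fcgr1 rose in RT over Sham in each of the 3 clusters tested, by 0.58 in cluster 0 (SE 0.09, adjusted p = 0.00899, against 2.13% of genes called in either direction), by 0.62 in cluster 2 (SE 0.11, adjusted p = 0.00458, 4.9% of genes called) and by 0.71 in cluster 3 (SE 0.11, adjusted p = 0.00290, 3.97% of genes called). Cluster 2 is led by Cx3cr1 and Ms4a7, and cluster 3 by Tnf, Mmp13 and Atf3. In clusters 2 and 3 the rise held without any 1 library, and in cluster 0 it was lost without RT replicate 1 (0.54, adjusted p = 0.104) or RT replicate 2 (0.63, 0.0623). The TmemRT against RT differences of Fcgr1 were -0.35 in cluster 0, -0.43 in cluster 2 and -0.45 in cluster 3 (adjusted p = 0.0818, 0.0605 and 0.0520). In clusters 2 and 3 edgeR called 0 members in TmemRT against RT (4 each at an unadjusted p under 0.05, where 1.55% and 1.71% of genes were called). DESeq2 called 1 (Fcgr3) in cluster 2 and 2 (Fcgr1 and Fcgr4) in cluster 3. In TmemRT against Sham edgeR called 0 members in clusters 0 and 3 (3 and 4 at an unadjusted p under 0.05, where 5% of genes were called in each), and DESeq2 called 0 in cluster 0 and 1 (Fcgr3) in cluster 3.

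Fcgr4 was low in cluster 0, but its groups stood apart there. It had 31.8 and 39.2 CPM in TmemRT libraries, 90.9 and 56.8 CPM in RT libraries, and 24.7 and 25.8 CPM in Sham libraries, with no overlap between the groups. Fcgr4 rose there in RT over Sham by 1.5 (SE 0.20, adjusted p = 0.00294), and this held without any 1 library, with values between 1.16 and 1.82. It fell by 1.12 in TmemRT against RT (SE 0.19, adjusted p = 0.0107, 2.18% of genes called), which was lost without TmemRT replicate 1 (-0.98, adjusted p = 0.168) or TmemRT replicate 2 (-1.28, 0.0567). In cluster 2, Fcgr4 had 135 and 172 CPM in TmemRT, 251 and 163 CPM in RT, and 138 and 161 CPM in Sham libraries. Its RT against Sham differences were 0.47 in cluster 2 (adjusted p = 0.129) and 0.44 in cluster 3 (adjusted p = 0.177). Whether the Fcgr4 effect differs between clusters was not tested.

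**Figure D3:**
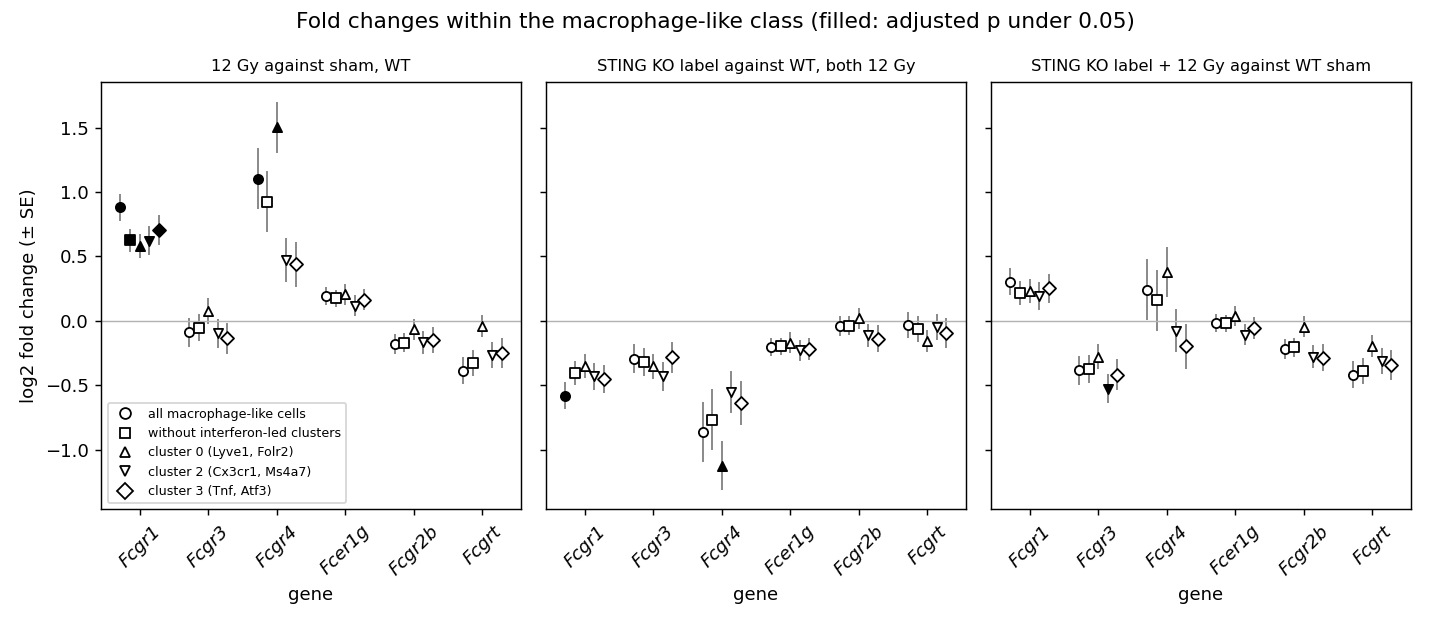
Log2 fold changes (vertical axis, bars are SE) of the 6 genes (horizontal axis) in RT against Sham, TmemRT against RT and TmemRT against Sham (panels from left to right), for all macrophage-like cells, for these without the interferon-led cluster, and for clusters 0, 2 and 3. Filled points passed an adjusted p of 0.05; Fcgr1 is filled in RT against Sham in all 5 sets of cells, and Fcgr4 in 2 of them.

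Fcgrt marked cluster 0, at 792 to 905 CPM over the 6 libraries, against 311 to 398 CPM in cluster 2 and 212 to 272 CPM in cluster 3. Within these clusters its RT against Sham differences were -0.04, -0.27 and -0.25, with adjusted p of 0.886, 0.151 and 0.256. The share of cluster 0 moved in the same direction as Fcgrt in the whole class, and its part in the -0.38 there was not tested. In cluster 2, Fcgr3 fell by 0.53 in TmemRT against Sham (SE 0.11, adjusted p = 0.0136, 5.41% of genes called), with 811 and 732 CPM in TmemRT and 925 and 1128 CPM in Sham libraries. That call was lost without Sham replicate 2 (-0.34, adjusted p = 0.189) or TmemRT replicate 2 (-0.44, 0.186).

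Markers of neighbouring cell types moved in the same sums. Of 8 monocyte markers, 3 rose in RT against Sham in macrophage-like cells (Cd300e, Ly6c2 and Plac8). The summed level of the 8 was 68.7 and 89.6 CPM in TmemRT, 104 and 115 CPM in RT, and 49.9 and 60.2 CPM in Sham libraries, and none of the 8 was at 0. Of 10 macrophage markers, 4 fell, among them Apoe, Csf1r and Mrc1, and 3 others were higher at an unadjusted p under 0.05 in edgeR. The sums of the 10 were 37912 and 35539 CPM in TmemRT, 38336 and 37548 CPM in RT, and 43380 and 45639 CPM in Sham libraries. The part of either cell type in the results for Fcgr1 and Fcgr4 was not tested.

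The ratio of activating to inhibitory receptor UMIs, (Fcgr1 + Fcgr3 + Fcgr4) over Fcgr2b, does not depend on the scaling to library totals. In macrophage-like cells it was 2.02 and 2.03 in TmemRT, 2.73 and 2.55 in RT, and 1.94 and 2.09 in Sham libraries. Both RT libraries lay above the other 4, which overlapped. In cluster 0 the ratio was 1.72 and 1.59 in TmemRT, 2.14 and 2.25 in RT, and 1.77 and 1.83 in Sham libraries, and RT was again the highest group in clusters 2 and 3. In cluster 10, outside the class, RT and Sham overlapped. The ratio there was 1.31 and 1.40 in TmemRT, 1.91 and 1.61 in RT, and 1.55 and 1.72 in Sham libraries. With 2 libraries against 2, the two-sided exact permutation test of RT against Sham gave p = 0.333, the smallest this design allows, in the macrophage-like class and in clusters 0, 2 and 3. In monocyte-like cells the ratio was 2.32 and 2.76 in TmemRT, 3.29 and 2.73 in RT, and 2.61 and 3.06 in Sham libraries, where the groups overlapped.

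**Figure D4:**
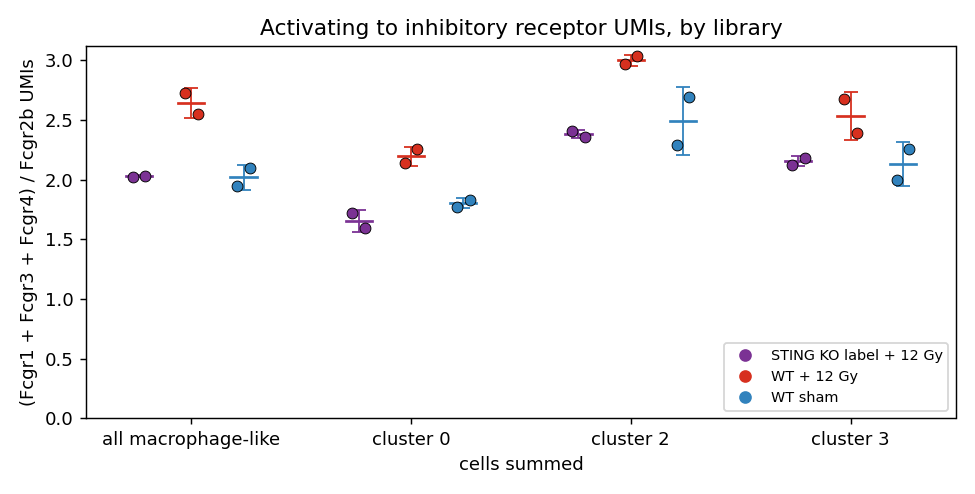
Ratio of (Fcgr1 + Fcgr3 + Fcgr4) UMIs to Fcgr2b UMIs per library (vertical axis) in macrophage-like cells and in clusters 0, 2 and 3, with TmemRT, RT and Sham from left to right. Points are libraries, lines means and bars the SD; RT libraries lie at 2.73 and 2.55 in macrophage-like cells, above all TmemRT and Sham libraries.

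The share of macrophage-like cells with at least 1 UMI gave a like group order. With each cell thinned to 2000 UMIs, Fcgr1 was detected in 31.9% and 35.2% of TmemRT, 46.2% and 39.5% of RT, and 26.6% and 27.7% of Sham macrophage-like cells. Fcgr4 was detected in 13.7% and 17.7% of TmemRT, 30.6% and 18.0% of RT, and 12.4% and 14.3% of Sham macrophage-like cells. In B cell-like cells thinned in the same way, which should lack both and of which 20 to 187 per library were too shallow, the shares were 0 to 1.84% for Fcgr1 and 0.198% to 0.908% for Fcgr4. Before thinning, Fcgr1 was detected in 71.0% and 68.3% of TmemRT, 76.6% and 63.9% of RT, and 50.4% and 54.2% of Sham macrophage-like cells, at median depths of 8506 and 8023 UMIs in TmemRT, 6872 and 5760 in RT, and 4856 and 5247 in Sham libraries. Median depths of B cell-like cells were 2054 to 4105 UMIs. Cells shallower than 2000 UMIs, 54 to 176 macrophage-like cells per library, were left out of the thinned shares.

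In monocyte-like cells, the blood-derived relatives of macrophages, Fcgr1 had 106 and 149 CPM in TmemRT, 192 and 223 CPM in RT, and 123 and 156 CPM in Sham libraries. RT lay above the other groups, which overlapped. TmemRT differed from RT by -0.77 (SE 0.17, adjusted p = 0.0634, where 0.802% of all genes were called), and RT from Sham by 0.58 (SE 0.18, adjusted p = 0.454). DESeq2 called Fcgr1 in TmemRT against RT (adjusted p = 0.0310). Monocyte-like Fcgr4 had 148 and 148 CPM in TmemRT, 279.8 and 142 CPM in RT, and 141 and 149 CPM in Sham libraries, so only RT replicate 1 stood apart. The class joins cluster 9 (led by Chil3, Plac8 and Ly6c2) and cluster 15 (led by Cd300e, Ace and Treml4), and Fcgr4 was higher in cluster 15 in every library. Cluster 15 made up 39.6% and 34.9% of the class in TmemRT, 50.8% and 27.8% in RT, and 36.9% and 36.3% in Sham libraries. Within cluster 15, Fcgr4 had 456 and 378 CPM in TmemRT, 522 and 450.1 CPM in RT, and 478 and 482 CPM in Sham libraries. Within cluster 9 it had 38.4 and 74.1 CPM in TmemRT, 101 and 72.1 CPM in RT, and 34.6 and 47.4 CPM in Sham libraries. For Fcgr4, RT replicate 1 was thus highest within both clusters and also in its share of cluster 15, whose part in the class value was not tested. Fcgr1 within cluster 9 had 126 and 177 CPM in TmemRT, 270 and 257 CPM in RT, and 144 and 183 CPM in Sham libraries. Within cluster 15 it had 49.0 and 62.2 CPM in TmemRT, 87.2 and 73.5 CPM in RT, and 56.0 and 65.3 CPM in Sham libraries. Both RT libraries were highest for Fcgr1 within each cluster, which was not tested.

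In neutrophil-like cells the groups lay close together for Fcgr4. It had 142 and 144 CPM in TmemRT, 153 and 170.1 CPM in RT, and 143 and 144 CPM in Sham libraries, with an RT against Sham difference of 0.13 (SE 0.18, adjusted p = 0.936). This class joins cluster 5 (led by Retnlg, Lcn2 and S100a8) and cluster 6 (led by Il1r2, Acod1 and Ptgs2), whose mix varied widely between libraries. Cluster 5 made up 54.1% and 48.0% of the class in TmemRT, 31.4% and 36.1% in RT, and 19.7% and 70.2% in Sham libraries. Fcgr4 had 154 and 139 CPM in TmemRT, 129 and 184 CPM in RT, and 125 and 140.2 CPM in Sham libraries within cluster 5. Within cluster 6 it had 121 and 152 CPM in TmemRT, 169 and 160.3 CPM in RT, and 149.8 and 159.9 CPM in Sham libraries. The part of that mix in the tests on the class was not tested. A test of the difference itself, an interaction of class and group with library as a block, gave 0.91 for macrophage-like minus neutrophil-like cells (SE 0.24, adjusted p = 0.0161 over 12173 genes, of which 1.17% were called). It was lost without RT replicate 1 (0.54, adjusted p = 0.857), Sham replicate 2 (0.78, 0.472), TmemRT replicate 1 (0.92, 0.120) or TmemRT replicate 2 (0.92, 0.121). RT replicate 1 also stood above RT replicate 2 for Fcgr4 in cycling (75.9 against 30.4 CPM) and dendritic cell-like cells (44.0 against 16.7 CPM), but not in neutrophil-like cells. No other test of a member passed between macrophage-like cells and neutrophil-like, monocyte-like, B cell-like or endothelial-like cells in any of the 3 comparisons.

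**Figure D5:**
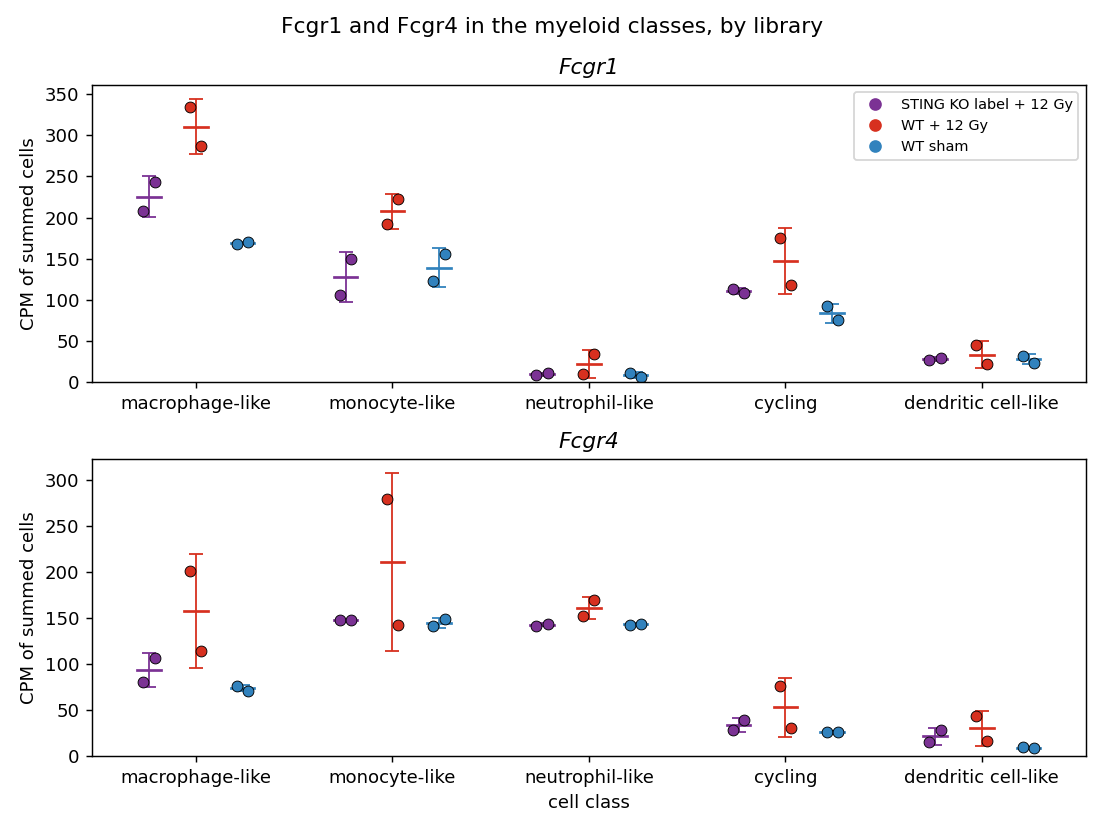
Levels of Fcgr1 and Fcgr4 in CPM (vertical axis) in 4 myeloid classes and the cycling class, with TmemRT, RT and Sham from left to right, points for libraries, lines for means and bars for the SD. Fcgr4 in neutrophil-like cells stays between 142 and 170.1 CPM, while RT replicate 1 is the highest library in the macrophage-like, monocyte-like, cycling and dendritic cell-like classes.

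Fcgrt passed the edgeR test in 2 classes, endothelial-like and cycling, and not in the macrophage-like class. Endothelial cells use the neonatal Fc receptor to protect circulating IgG and albumin from breakdown. In endothelial-like cells Fcgrt had 86.7 and 75.8 CPM in TmemRT, 93.2 and 106 CPM in RT, and 151 and 131 CPM in Sham libraries, in that order without overlap. Fcgrt fell by 0.84 in TmemRT against Sham (SE 0.13, adjusted p = 0.0108), 1 of 4 members tested, where 6.26% of all genes were called. The call was lost without Sham replicate 1 (-0.76, adjusted p = 0.0654), TmemRT replicate 1 (-0.94, 0.0552) or TmemRT replicate 2 (-0.75, 0.122). RT differed from Sham by -0.48 (adjusted p = 0.0779, 5.04% of genes called). edgeR and DESeq2 called 0 of the 4 in RT against Sham and in TmemRT against RT, where 0.037% of genes were called, with 1 (Fcgrt) at an unadjusted p under 0.05 in each. Summed macrophage markers in these cells were 592 and 531 CPM in TmemRT, 555 and 1082 CPM in RT, and 1441 and 886 CPM in Sham libraries, and 2 of 10 fell in TmemRT against Sham. Summed cardiomyocyte markers were 578 and 576 CPM in TmemRT, 637 and 499 CPM in RT, and 895 and 1227 CPM in Sham libraries, and 6 of 10 fell. No marker of either list was at 0. The part of RNA from these cells in the Fcgrt result was not tested.

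In cycling cells, which mix lineages, Fcgrt had 160 and 142 CPM in TmemRT, 137 and 145 CPM in RT, and 229 and 286 CPM in Sham libraries. It fell by 0.78 in RT against Sham (SE 0.13, adjusted p = 0.0499), 1 of 6 members, where 0.351% of genes were called. In TmemRT against RT and TmemRT against Sham edgeR called 0 of 6 (1 and 2 at an unadjusted p under 0.05, 0.194% and 0.295% of genes called), and DESeq2 called 0 and 1 (Fcgrt). That RT against Sham call was lost without either Sham library (adjusted p = 0.129 and 0.316), without RT replicate 1 (0.0983) and without either TmemRT library (0.0692 and 0.0592). Summed macrophage markers in cycling cells were 15565 and 14048 CPM in TmemRT, 16689 and 13722 CPM in RT, and 17943 and 18192 CPM in Sham libraries, and their part was not tested.

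edgeR called 0 members in all 3 comparisons in B cell-like, NK cell-like, T cell-like, neutrophil-like, monocyte-like, dendritic cell-like and fibroblast-like cells. In the order RT against Sham, TmemRT against RT and TmemRT against Sham, the genes called were 0%, 0.203% and 0.192% in B cell-like cells, 0.0147%, 1.04% and 0.441% in NK cell-like cells, and 0.579%, 0.0152% and 1.77% in T cell-like cells. They were 0%, 0.228% and 0.122% in neutrophil-like cells, 0.0688%, 0.802% and 0.562% in monocyte-like cells, 0%, 0.0485% and 0.194% in dendritic cell-like cells, and 0.0118%, 0.0588% and 0.153% in fibroblast-like cells. Of the 6 members, 0 to 3 per comparison had an unadjusted p under 0.05 there, and DESeq2 called 1 in all, Fcgr1 in monocyte-like cells. Low counts kept Fcgr1 and Fcgr4 out of the test in NK cell-like and endothelial-like cells, and Fcgr4 in T cell-like and fibroblast-like cells. Over all cells together edgeR called 0 of 6 members in each comparison, against 0.0127%, 0.0191% and 0.0445% of genes in RT against Sham, TmemRT against RT and TmemRT against Sham. Unadjusted p-values under 0.05 numbered 2, 1 and 2 there, and DESeq2 called 2 (Fcgr1 and Fcgrt), 0 and 1 (Fcgrt).

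The signalling genes downstream of the receptors were followed in macrophage-like cells through lists of known pathway genes. Of 19 genes of activating Fc receptor signalling, edgeR called 8 higher and none lower in RT against Sham, where 6.37% of all genes tested were called. The list median log2 fold change was 0.27 against -0.01 over all genes tested. At an unadjusted p under 0.05 in edgeR there were 11, of which 9 were higher in RT, and DESeq2 called 7, all higher. Fgr encodes a Src-family kinase that phosphorylates ITAMs. It had 14.5 and 20.1 CPM in TmemRT, 23.5 and 19.7 CPM in RT, and 6.93 and 9.71 CPM in Sham libraries. Fgr rose by 1.37 in RT over Sham (SE 0.21, adjusted p = 0.0130), which was lost without Sham replicate 1 or RT replicate 1 (adjusted p up to 0.0594).

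Lat2, a membrane adaptor, rose by 0.58 in RT over Sham (SE 0.08, adjusted p = 0.00890), held without any 1 library but lost at the 5% mitochondrial limit (0.37, adjusted p = 0.427). It had 96.8 and 105 CPM in TmemRT, 101 and 94.9 CPM in RT, and 67.2 and 64.4 CPM in Sham libraries. Lcp2, the adaptor SLP-76, rose by 0.56 (SE 0.12, adjusted p = 0.0367), which was lost without Sham replicate 2 or either RT library (adjusted p up to 0.117), and with libraries scaled to their totals. Fyn, Lyn, Plcg2 and Rac2 also rose. Syk, the kinase recruited by the phosphorylated ITAM, had 126 and 123 CPM in TmemRT, 115 and 121 CPM in RT, and 126 and 143 CPM in Sham libraries (-0.18 in RT against Sham, adjusted p = 0.315).

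In TmemRT against RT, 1 of the 19 fell, where 1.63% of all genes were called, and in TmemRT against Sham 2 rose, where 4.39% were. Scaled to library totals, 0 and 4 of the 19 were called in these comparisons. Those that rose were Lat2 (0.51, adjusted p = 0.0141, lost without Sham replicate 2 or either TmemRT library, up to 0.172, and at the 5% limit, 0.24, 0.631) and Fgr (0.93, adjusted p = 0.0484, lost without any 1 of the 6 libraries, up to 0.298). Without any 1 library, the count of activating signalling genes called in RT against Sham was 3 to 5 of 19.

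Of 9 genes of inhibitory signalling, edgeR called 0 in each comparison, with 2, 3 and 0 at an unadjusted p under 0.05 in RT against Sham, TmemRT against RT and TmemRT against Sham, and DESeq2 called 0. Of all genes, 6.37%, 1.63% and 4.39% were called in these comparisons. Inpp5d, the phosphatase SHIP that Fcgr2b recruits, had 146 and 144 CPM in TmemRT, 143 and 150.1 CPM in RT, and 152 and 145 CPM in Sham libraries. Of 13 genes of uptake and of neonatal Fc receptor partners, 3 rose in RT against Sham (B2m, Ncf4 and Rab11fip1), where 6.37% of all genes were called and the list median was 0.10. B2m, the light chain of the neonatal Fc receptor and of MHC class I, had 2545 and 2814 CPM in TmemRT, 3672 and 3114 CPM in RT, and 2739 and 2300 CPM in Sham libraries. It rose by 0.44 in RT over Sham (SE 0.10, adjusted p = 0.0418), while Fcgrt had -0.38 and was not called. The call of B2m remained only without RT replicate 2, and was lost without any other library (adjusted p up to 0.169) and with libraries scaled to their totals. Those of Ncf4 (0.37, adjusted p = 0.0380), an oxidase subunit, and Rab11fip1 (1.03, adjusted p = 0.0312), an effector in recycling endosomes, were lost without any 1 library (up to 0.166 and 0.136).

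Of 6 other receptors tested that pair with the gamma chain, Clec4n (0.49, adjusted p = 0.0492), which encodes dectin-2, and Pira2 (0.49, adjusted p = 0.0338) rose in RT over Sham and Lilra5 fell (-0.65, adjusted p = 0.0396), 3 of 6 where 6.37% of all genes were called. Each kept its call without only 1 of the 6 libraries (adjusted p up to 0.208). In TmemRT against Sham, Pira2 rose by 0.65 (adjusted p = 0.0123) and Lilra5 fell by 0.89 (adjusted p = 0.0141), 2 of 6 where 4.39% of all genes were called. Pira2 was lost without Sham replicate 2 or either TmemRT library (up to 0.0768), and Lilra5 without Sham replicate 2 or TmemRT replicate 2 (up to 0.156).

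Of the ligands, 5 of 10 immunoglobulin genes were tested in macrophage-like cells, and edgeR and DESeq2 called 0 in each comparison. At an unadjusted p under 0.05 there were 3, 1 and 0 in RT against Sham, TmemRT against RT and TmemRT against Sham. Igkc, a light chain made by B cells and plasma cells, had 26.3 and 306 CPM in TmemRT, 64.6 and 2132 CPM in RT, and 19.98 and 50.2 CPM in Sham macrophage-like cells. In each group the library numbered 2 had more than the library numbered 1. Of 7 adaptors of the ITAM kind tested, edgeR called 0 in each comparison (2, 4 and 0 at an unadjusted p under 0.05), and DESeq2 called 1, the B cell gene Cd79a, in RT against Sham and in TmemRT against RT.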

How the data were processed

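CD45+ cardiac cells were profiled with 10x Genomics 3′ version 3 chemistry, per the labels' protocols. The deposited values are whole UMI counts, not normalized, with genes in rows and barcodes in columns. Cell Ranger 5.0.0, the mm10 build and Seurat 3 are named in the submitters' processing notes, which do not say what each did. No per-sample column was left unassigned. A 3′ tag sees little of a transcript. The antisense gene Gm38204 is counted as a gene of its own, but the sources used here do not state how reads were assigned to strands.

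Cells with at least 200 genes and at most 10% mitochondrial UMIs were kept; 23.2% to 33.4% of barcodes exceeded the limit. Automatic scrublet thresholds marked 0 to 3 cells per library, so the highest scores were removed at 0.8% per 1000 cells (98 to 321). Libraries shared 6 to 38 barcodes per pair, and no pair agreed within sampling noise (chi-square per degree of freedom at least 31.1 within groups). Clustering used scanpy 1.11.5 (Python 3.11.15) with 2000 variable genes that excluded the 6 genes, 30 components, 15 neighbours and Leiden resolution 1. A cluster was named from at least 3 detected markers. It stayed unnamed where a second lineage's markers reached, at the median, 0.5 of their highest share of cells in any cluster; cycling cells were exempt, so that class mixes lineages.

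Counts were summed per class and library and tested with edgeR 4.0.16 (R 4.3.3; filterByExpr, TMM, quasi-likelihood F test over all 6 libraries, 3 residual degrees of freedom), with Benjamini-Hochberg adjustment over all genes of the class at 0.05. DESeq2 1.42.0, filters, libraries, doublets and clustering were varied. The code was tested on simulated data. Likeness used log2(CPM + 1) over genes of at least 20 CPM. All 6 members are named in every class; of each pathway list, up to 4 called genes with the largest change are named, except some that are not reported here, and Syk, Inpp5d and Igkc were added after their values were seen. The members and lists were chosen with earlier results of these data known. Figures used matplotlib 3.10.9. Counting error only is covered by detection shares. Deviations of same-numbered libraries correlated at -0.01 to 0.18, and not above 0.1 in every pair, so the numbers were not used as pairs, although Igkc and Jchain were higher in the library numbered 2 of each group.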

Additional observations from a re-analysis of the deposited data

Results flagged for a closer look

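In RT against Sham, the change of Fcgr4 in macrophage-like cells exceeded that in neutrophil-like cells by 0.91 on the log2 scale (SE 0.24, adjusted p = 0.0161, interaction of class and group in edgeR with library as a block). What marked it was this test of the difference between 2 cell classes under the same comparison. Fcgr4 had 202 and 114 CPM in RT and 76.2 and 71.4 CPM in Sham macrophage-like cells, and 153 and 170.1 CPM in RT and 143 and 144 CPM in Sham neutrophil-like cells. Without RT replicate 1 the difference was 0.54 (adjusted p = 0.857), so the call rests on that library. The neutrophil-like class joins clusters 5 and 6, and cluster 5 made up 31.4% and 36.1% of it in RT and 19.7% and 70.2% in Sham libraries; the part of this mix in the difference was not tested. The call was also lost without Sham replicate 2, TmemRT replicate 1 or TmemRT replicate 2.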

How the results depend on the processing

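No called fold change of a member reversed under any alternative. Of 11 called fold changes, DESeq2 and a replicate block kept 11 each, no filter on low counts kept 9 and only the 4 libraries compared kept 8. Each fit that left out 1 library lost some of the 11 calls. A 5% mitochondrial limit kept 0 of 4, with 292 to 579 macrophage-like cells per library in place of 1207 to 1945. The replicate block gave Fcgr1 0.88 (adjusted p = 0.00525) in macrophage-like RT against Sham, and moved the calls to 2 in cycling RT against Sham and 1 in monocyte-like TmemRT against RT. Scaling to library totals, chosen after seeing the data and run for macrophage-like and all cells, kept 2 of 3 calls; it gave 3 members in macrophage-like RT against Sham and 0 in TmemRT against RT, and for activating signalling 0 in TmemRT against RT and 4 in TmemRT against Sham, and 1 in TmemRT against RT for 1 list with 0 before. Where a library was left out, the lone library of its group was assumed to vary like the others. Counts of members called that moved by over 1.5 times were as follows, with the count without each library in turn as a range. RT against Sham in macrophage-like cells (2) became 1 with the 4 libraries or without the interferon-led cluster and 0 at 5% mitochondrial, range 1 to 2. TmemRT against RT (1) became 2 with no filter and 0 with the 4 libraries, at 5% or without that cluster, range 0 to 1. TmemRT against Sham (0) became 2 with DESeq2 or no filter and 1 with doublets kept or the Fc genes among variable genes. Cycling RT against Sham (1) became 2 with DESeq2, 3 with no filter and 0 with the 4 libraries, doublets kept or the Fc genes variable, range 0 to 3; its TmemRT against RT (0) became 2 with no filter, range 0 to 2, and its TmemRT against Sham (0) 1 with DESeq2, no filter or the 4 libraries, range 0 to 1. Endothelial-like TmemRT against Sham (1) became 2 with doublets kept and 0 at 5%, range 0 to 1. Monocyte-like TmemRT against RT (0) became 1 with DESeq2 or doublets kept and 2 with no filter, range 0 to 2, and RT against Sham (0) 2 with no filter, range 0 to 1. No filter also gave 4 calls in fibroblast-like TmemRT against Sham (range 0 to 1) and 1 each in dendritic cell-like and endothelial-like RT against Sham, neutrophil-like RT against Sham and TmemRT against RT, and T cell-like RT against Sham (also 1 at Leiden 0.5, range 0 to 2) and TmemRT against Sham (also 1 with the 4 libraries, range 0 to 1). Over all cells, DESeq2 gave 2 in RT against Sham and 1 in TmemRT against Sham, and no filter 2 in RT against Sham. The Fcgr4 difference between macrophage-like and neutrophil-like cells (0.91) was 1.02 and not called (0 members) without the library block, range 0.54 to 1.44 (0 to 1 member). Thinned to 1000 UMIs and unthinned, the mean share of macrophage-like cells with Fcgr1 was 19.98% and 69.6% in TmemRT, 25.7% and 70.3% in RT, and 16.5% and 52.3% in Sham, and with Fcgr4 9.37% and 39.1%, 13.6% and 45.8%, and 7.43% and 24.5%. The alternatives for the pathway lists were chosen after seeing the data. Activating signalling in RT against Sham (8) became 5 with the 4 libraries, 4 without the interferon-led cluster and 0 at 5%, range 3 to 5; in TmemRT against RT (1) 0 at 5% or without that cluster, range 0 to 1; in TmemRT against Sham (2) 4 with no filter, 5 with the Fc genes variable, 1 with the 4 libraries, Leiden 0.5 or without that cluster and 0 at 5%, range 0 to 2. Uptake and gamma-chain partners in RT against Sham (3 each) became 0 with the 4 libraries, at 5% or without that cluster, ranges 0 to 1 and 0 to 2. The remaining list counts, 0 to 2 in the main fits, moved by at most 4 (to 4, for 1 list in TmemRT against RT with no filter), with ranges of 0 to 2. The cause of these moves was not tested. At 5% no T cell-like, dendritic cell-like or fibroblast-like class could be formed.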

Other observations

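Receptors for other antibody classes kept to other cells. Fcer1a and Ms4a2, chains of the high-affinity IgE receptor, averaged 297 ± 60.8 and 343 ± 234 CPM in TmemRT, 482 ± 224 and 317 ± 37.3 CPM in RT, and 654 ± 460 and 388 ± 109 CPM in Sham libraries in mast cell or basophil-like cells (SD, n = 2 each), a class of only 5 to 22 cells per library. In macrophage-like cells both averaged under 0.1 CPM in each group. B cell-like cells carried Fcer2a, the low-affinity IgE receptor CD23, at 351 ± 43.2 CPM in TmemRT, 234 ± 119 CPM in RT and 341 ± 98.6 CPM in Sham libraries, and Fcmr, the IgM receptor, at 572 ± 43.9 CPM in TmemRT, 677 ± 156 CPM in RT and 711 ± 27.9 CPM in Sham libraries. Fcrls, a scavenger-like member of the Fc receptor-like family, was a macrophage gene here, at 515 ± 70.8 CPM in TmemRT, 427 ± 38.8 CPM in RT and 441 ± 27.5 CPM in Sham libraries in macrophage-like cells (-0.04 in RT against Sham, edgeR adjusted p = 0.886). The low Fcmr in macrophage-like cells, 1.82 and 2.73 CPM in TmemRT, 5.20 and 7.28 CPM in RT and 2.28 and 2.89 CPM in Sham libraries, passed the test in RT against Sham (1.28, adjusted p = 0.0435) and TmemRT against RT (-1.58, adjusted p = 0.0409), and so did Fcrla in TmemRT against RT (-1.71, adjusted p = 0.0478). DESeq2 gave Fcmr an adjusted p of 0.0571 in RT against Sham and no adjusted p to either gene in TmemRT against RT. Fcmr in RT against Sham and Fcrla were lost without any 1 library (adjusted p up to 0.185 and 0.331), and Fcmr in TmemRT against RT without Sham replicate 2, RT replicate 2 or either TmemRT library (up to 0.283). Summed over 8 B cell markers, macrophage-like cells had 126 and 128 CPM in TmemRT, 126 and 160.1 CPM in RT, and 118 and 129.8 CPM in Sham libraries, with none of the 8 at 0. Of the 8, edgeR called 0 in RT against Sham and in TmemRT against RT (5 and 7 at an unadjusted p under 0.05). DESeq2 called Cd79a in both, which had 6.91 and 11.6 CPM in TmemRT, 16.7 and 32.6 CPM in RT, and 7.66 and 12.5 CPM in Sham libraries. The part of RNA from B cells in the Fcmr and Fcrla results was not tested.

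Jchain, the joining chain of secreted IgM and IgA and a mark of plasma cells, was higher in the library numbered 2 of each group. Over all cells it had 0.788 and 271 CPM in TmemRT, 0.0367 and 664 CPM in RT, and 0.122 and 29.0 CPM in Sham libraries.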
